A study of Rattus norvegicus with 16 samples.

Results

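The genes of oxidative phosphorylation (OXPHOS) were described in the right ventricle of female Sprague Dawley rats across a design that crosses genotype with surgery. Members were the gene entries whose symbol starts with Nduf, Uqcr, Atp5 or Mt-, starts with Cox followed by 4, 5, 6, 7 or 8, or is Sdha, Sdhb, Sdhc or Sdhd, and that had 10 or more counts in at least 4 libraries. Of 32754 entries, 110 matched the symbols and 103 also met the count, 90 of them nuclear and 13 encoded by the mitochondrial genome. Wild-type (WT) rats and rats with mutated estrogen receptor alpha (ERalpha -/-, called KO here) were 20 to 21 weeks old. They had sham surgery (SHAM) or pulmonary artery banding (PAB) for 10 weeks, a constriction that raises the pressure against which this chamber works. The 4 groups, named WT SHAM, KO SHAM, WT PAB and KO PAB, hold 4 stranded mRNA libraries each, made from 10 mg of tissue. The labels do not say that the libraries of a group come from separate animals, so a p-value reflects only how these libraries vary, which may be technical.

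Oxidative phosphorylation is the process by which mitochondria make most of the ATP of the beating heart. Complex I (NADH dehydrogenase) and complex II (succinate dehydrogenase) pass electrons to ubiquinone, complex III (the cytochrome bc1 complex) passes them on to cytochrome c, and complex IV (cytochrome c oxidase) gives them to oxygen. Complexes I, III and IV pump protons across the inner membrane, and complex V (ATP synthase) uses the return flow to make ATP. Complex II is wholly nuclear encoded, while the other complexes combine nuclear subunits with subunits read from mitochondrial DNA. Nuclear subunit genes are known targets of the factors NRF1 and GABPA, of estrogen-related receptors (ERR) and of YY1.

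The start regions of nuclear members were read from RefSeq (rat assembly GRCr8, another assembly than that of the counts), which gives 300 bases for each gene, 250 before the start and 50 after it. Of 90 nuclear members, 88 matched a RefSeq gene and 76 had such a window. The NRF1 core GCGCANGCG, on either strand, was present in 18 of the 76 windows, 23.7%, against 7.98% of 19005 windows of protein-coding genes. The GABPA core CCGGAAG was found in 25% of the members' windows and in 11.2% of all. The YY1 word AAGATGGCG occurred in 11.8% against 2.27%, and the ERR word TNAAGGTCA in 3.95% against 0.984%. The GC box GGGCGG was as frequent in the members' windows (42.1%) as in all windows (42.9%). Matches of different words were counted apart and may overlap, and a match is a run of letters, not a measured binding site. The windows below belong to 3 ATP synthase subunits with an NRF1 match, to Uqcrq, the member with the largest banding log2 fold change, and to Cox8b, the muscle isoform of a complex IV subunit. They are written 5′ to 3′ along the gene's strand. Capitals mark NRF1 matches in the first 3, the GABPA match, written as its reverse complement, in Atp5i, and the GABPA match in Uqcrq. In Atp5o and in Atp5i the NRF1 capitals hold 2 overlapping matches, 1 on each strand. The Cox8b window holds neither word.
Atp5o (Atp5po), chr11:44657434-44657733, minus strand: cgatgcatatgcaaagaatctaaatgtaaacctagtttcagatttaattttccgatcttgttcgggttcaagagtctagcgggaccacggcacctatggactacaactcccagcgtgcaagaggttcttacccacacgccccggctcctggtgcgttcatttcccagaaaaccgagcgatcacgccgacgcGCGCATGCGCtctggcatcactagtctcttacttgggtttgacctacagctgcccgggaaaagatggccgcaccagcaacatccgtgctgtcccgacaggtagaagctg
Atp5c1 (Atp5f1c), chr17:73333435-73333734, plus strand: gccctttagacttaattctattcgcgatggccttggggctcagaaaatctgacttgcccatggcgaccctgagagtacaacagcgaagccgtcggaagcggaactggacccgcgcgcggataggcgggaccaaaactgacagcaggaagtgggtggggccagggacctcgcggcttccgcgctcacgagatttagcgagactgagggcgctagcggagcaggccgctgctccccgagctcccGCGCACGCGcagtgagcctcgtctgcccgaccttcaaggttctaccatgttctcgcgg
Atp5i (Atp5me), chr14:1464610-1464909, plus strand: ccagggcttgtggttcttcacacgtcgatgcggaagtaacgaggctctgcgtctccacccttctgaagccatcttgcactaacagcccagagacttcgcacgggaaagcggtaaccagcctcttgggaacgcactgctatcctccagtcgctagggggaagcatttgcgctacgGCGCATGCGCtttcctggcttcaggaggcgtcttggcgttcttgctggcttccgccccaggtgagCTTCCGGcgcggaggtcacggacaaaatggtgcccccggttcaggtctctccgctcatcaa
Uqcrq, chr10:38089929-38090228, minus strand: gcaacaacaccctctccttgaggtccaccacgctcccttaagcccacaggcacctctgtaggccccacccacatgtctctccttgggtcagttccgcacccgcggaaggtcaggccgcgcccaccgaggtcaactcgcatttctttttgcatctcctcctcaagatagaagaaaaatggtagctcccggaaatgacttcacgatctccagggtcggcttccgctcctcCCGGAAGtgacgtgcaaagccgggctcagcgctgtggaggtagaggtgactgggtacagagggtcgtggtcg
Cox8b, chr1:205408224-205408523, minus strand: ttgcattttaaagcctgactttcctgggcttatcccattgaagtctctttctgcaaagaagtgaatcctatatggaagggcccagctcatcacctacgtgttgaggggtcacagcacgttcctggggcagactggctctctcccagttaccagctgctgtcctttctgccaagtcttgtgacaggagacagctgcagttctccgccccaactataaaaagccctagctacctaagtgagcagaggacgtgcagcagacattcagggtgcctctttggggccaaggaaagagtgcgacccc

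Depth was 22168110 to 34718633 counts per library. Esr1, which encodes ERalpha, had 70 to 139 counts in each WT library and 7 to 21 in each KO library. Cardiomyocyte markers had a high summed level in all 16 libraries, 41272 to 78357 CPM over the 11 of the 12 listed genes that the entries hold. This sum does not give the level of each gene. CPM divide each count by its library's total after TMM adjustment. Libraries WT SHAM 2, WT SHAM 3 and KO SHAM 4 stood apart, as an earlier description of these data named them. They carried transcripts of adipocytes and of the mesothelium, the lining of the heart's surface. Adipoq, the adipocyte hormone adiponectin, was at 45.6, 28.1 and 11.1 CPM in them and at 0 to 5.21 CPM in the other 13, with the highest of these in KO PAB 3. Msln, the mesothelial surface protein mesothelin, was at 43.9, 20.4 and 42.5 CPM against 0 to 7.90 CPM. Of 11 adipocyte markers, 9 or 10 had at least 10 counts in these 3 libraries and 4 to 9 in the other 13. Plin1 and Retn were at 0 in 10 of the 13. The summed adipocyte level did not separate the libraries (439 to 554 against 416 to 563 CPM), because Fabp4 and Plin4 are abundant in each. All 11 mesothelial markers had at least 10 counts in the 3 libraries and 3 to 11 did in the others, with summed levels of 84.4 to 167 against 21.7 to 49.7 CPM. Ucp1, the uncoupling protein of brown adipocytes, had 1396 counts in WT SHAM 3 and 0 or 1 in each other library. The values below are over all 16 libraries, and those without these 3 follow after the genotype comparisons.

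The mitochondrial genome supplied a similar share of the counts in each group. In WT rats Mt- entries took 36.9% ± 2.75 (SD, n = 4) of the counts after sham surgery and 37.3% ± 2.14 after banding. In KO rats they took 38.0% ± 3.87 and 37.7% ± 1.86. These group means differed by less than the SD within a group. Mt-co1, the catalytic subunit of complex IV, alone took 14.1% to 18.2% of a library. The 90 nuclear members together took 3.58% ± 0.464, 3.69% ± 0.123, 3.69% ± 0.269 and 3.44% ± 0.222 in WT SHAM and PAB and then KO SHAM and PAB. Counts on Mt- entries were 9.09 to 12.2 times those on nuclear members, with group means of 10.4 ± 1.01, 10.1 ± 0.424, 10.3 ± 0.952 and 11.0 ± 0.822. By complex, the 3 mitochondrial subunits of complex IV took 20.0% to 26.2% of a library and its nuclear subunits 0.438% to 0.586%. Complex V had the largest nuclear share (1.34% to 1.83%). These shares count reads, which longer transcripts give more of, and are not numbers of molecules.

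Nuclear OXPHOS transcripts were lowest in WT SHAM 2 and KO SHAM 4, and WT SHAM 3 was below the other 5 sham libraries. For each library the median over the 89 nuclear members tested was taken of the deviation of log2(CPM + 1) from the gene's mean over 16 libraries. It was -0.53 in WT SHAM 2, -0.34 in KO SHAM 4 and -0.16 in WT SHAM 3. The other 5 sham libraries lay between 0.08 and 0.21 and the 8 banded libraries between -0.21 and 0.21, with KO PAB 3 the lowest of these. WT SHAM 2 was the lowest of all 16 libraries for 77 of 102 members tested and KO SHAM 4 for 20. The same median over the 13 Mt- members was -0.43, -0.41 and -0.17 in WT SHAM 2, KO SHAM 4 and WT SHAM 3 and -0.16 to 0.32 in the other 13 libraries. Cardiomyocyte markers were lower in the same libraries, with summed levels of 41272, 52437 and 56985 CPM in WT SHAM 2, KO SHAM 4 and WT SHAM 3 against 59684 to 78357 CPM in the rest. In such tissue RNA, fewer cardiomyocytes and less RNA per cardiomyocyte cannot be told apart. Markers of some further cell types were higher in the same 3 libraries. The summed level of 6 fibroblast markers was 2127 to 3465 CPM in them against 848 to 1942 CPM in the other 13. The sum of 7 genes listed for smooth muscle, among them Des, Rgs5 and Cspg4, was 1991 to 3807 against 1476 to 2171 CPM. That of 6 macrophage markers was 115 to 160 against 43.0 to 147 CPM, and both sums overlapped. All of these markers had at least 10 counts in each library. The part of other cells in the OXPHOS levels was not tested.

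**Figure D1:**
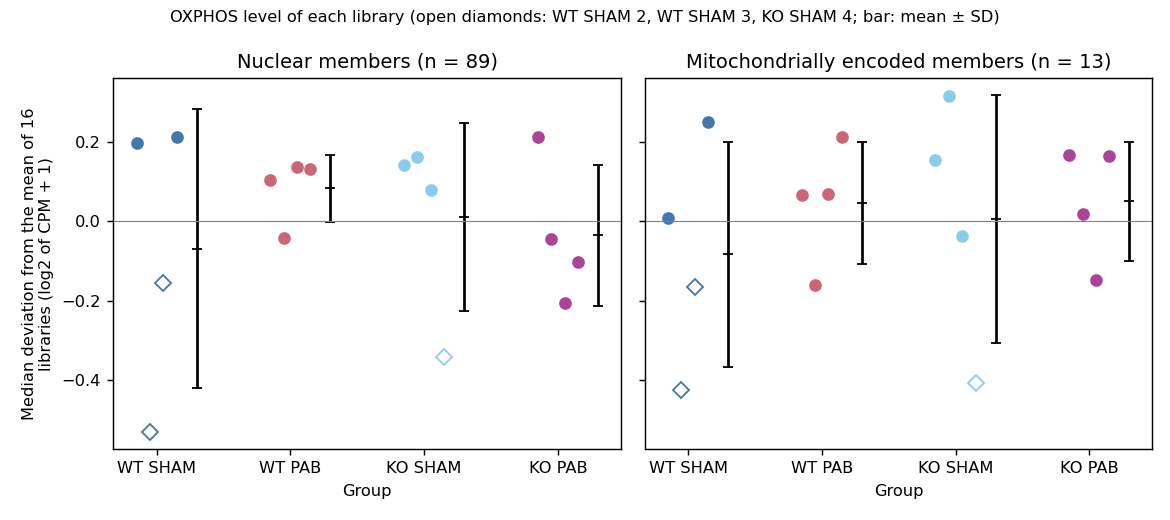
Median deviation of log2(CPM + 1) from the mean of 16 libraries, per library, over 89 nuclear members (left) and 13 mitochondrially encoded members (right); bars are group mean ± SD (n = 4). Open diamonds are WT SHAM 2, WT SHAM 3 and KO SHAM 4, which reach -0.53, -0.16 and -0.34 on the left while the other sham libraries lie between 0.08 and 0.21.

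**Figure D2:**
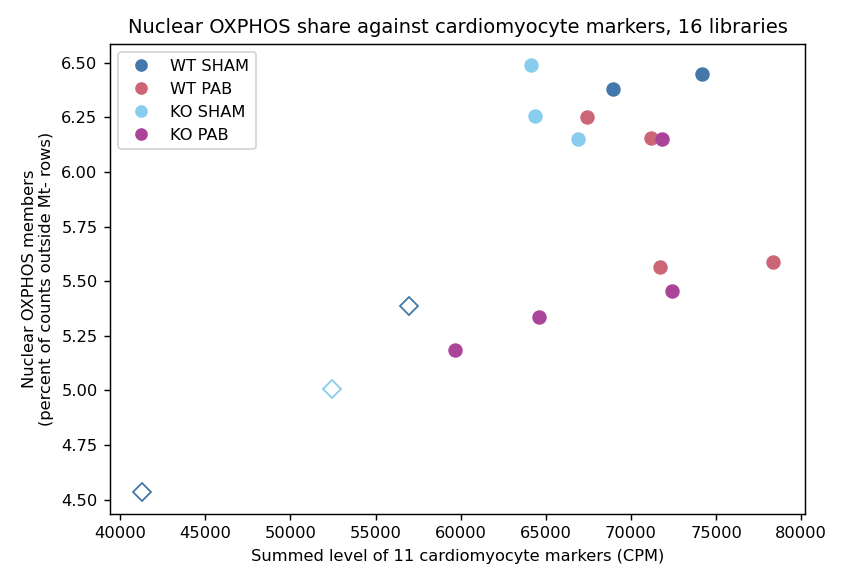
Share of the counts outside Mt- entries that fell on nuclear members (y axis, percent) against the summed level of 11 cardiomyocyte markers (x axis, CPM), one point per library. The 3 open diamonds lie at 41272 to 56985 CPM and 4.53% to 5.39%, the other 5 sham libraries at 6.15% to 6.49% and the 8 banded libraries at 5.18% to 6.25%.

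The first comparison asks how 10 weeks of pressure load changed OXPHOS transcripts. Averaged over WT and KO, 0 of 102 members passed edgeR's quasi-likelihood test, with the threshold for the Benjamini-Hochberg adjusted p set at 0.05, while 5.09% of all 13458 genes tested did. At an unadjusted p below 0.05 there were 3 members, all higher, where 22.7% of all genes were, and DESeq2 and limma-voom also called 0 members. The median log2 fold change was 0.04 over the 89 nuclear members, 0.07 over the 13 Mt- members and -0.02 over all genes. For 97 of 102 members the 95% confidence interval lay within a 1.5-fold change in either direction, which held for 65.7% of all genes. The 5 exceptions were Uqcrq, Cox6a2, Ndufs7, Uqcr10 and Cox7a1, each with an upper bound beyond it.

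Complex I takes electrons from NADH through its N module, hands them to ubiquinone in its Q module and pumps protons in its membrane arm. Its 34 nuclear members had a median banding log2 fold change of 0.10, 28 above 0 and 6 below, and none passed the test. The medians were -0.01 over 5 genes of the N module, 0.08 over 5 of the Q module and 0.11 over 24 accessory subunits. Ndufv1, which binds NADH, was at 702, 417, 555 and 829 (CPM, replicates 1 to 4) in WT rats after sham surgery and at 814, 753, 844 and 726 after banding. In KO rats the values were 626, 649, 712 and 597 after sham surgery and 974, 728, 629 and 602 after banding. The banded and sham values overlapped in both genotypes, and WT SHAM 2 was the lowest of all. Its log2 fold change was 0.25 (SE 0.13, adjusted p = 0.265). Ndufs7, an iron-sulfur subunit of the Q module, varied most among all members over the 16 libraries, from 38.5 CPM in WT SHAM 2 to 115 CPM in KO PAB 1. It differed by 0.34 on the log2 scale (SE 0.20, adjusted p = 0.335). Ndufa1 has 2 entries under that symbol, kept apart here, whose log2 fold changes were 0.25 (SE 0.14) and 0.04 (SE 0.11). Reads can be split between such entries, so both values are uncertain.

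Complex II oxidizes succinate and is the only complex with no mitochondrial gene. Its catalytic subunits Sdha and Sdhb had log2 fold changes of 0.02 (SE 0.11) and 0.11 (SE 0.12), and its membrane anchors Sdhc and Sdhd had -0.07 (SE 0.11) and -0.04 (SE 0.12). None passed the test (adjusted p 0.635 to 0.929). Sdhc was at 553, 349, 457 and 543 CPM in WT rats after sham surgery and at 467, 463, 527 and 523 after banding. KO rats had values of 649, 573, 554 and 383 after sham surgery and 507, 469, 444 and 473 after banding. WT SHAM 2 and KO SHAM 4 were its lowest values and fell below each banded library.

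Complex III had a median log2 fold change of 0.10 over 9 nuclear members, 7 above 0 and 2 below. Uqcrq, a small subunit next to cytochrome b, had the largest log2 fold change of any member. It was at 94.8, 53.3, 80.9 and 106 CPM in WT rats after sham surgery and at 135, 111, 98.0 and 99.1 after banding. In KO rats the values were 58.7, 72.2, 77.0 and 76.9 after sham surgery and 132, 87.5, 72.4 and 86.3 after banding. The groups overlapped in both genotypes. The averaged log2 fold change was 0.41 (SE 0.15, adjusted p = 0.114), with 0.40 in WT and 0.41 in KO. Uqcr10, another small subunit, had 0.32 (SE 0.17, adjusted p = 0.263) at a low level of 8.69 to 12.6 CPM in the group means. The core and Rieske iron-sulfur subunits lay between -0.03 and 0.10.

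Complex IV carries tissue isoforms of several nuclear subunits. Its 16 nuclear members tested had a median log2 fold change of 0.00, with 8 on each side of 0. Cox6a2, the heart and skeletal muscle isoform of subunit 6A, was at 601, 335, 474 and 822 CPM in WT rats after sham surgery and at 860, 693, 752 and 655 after banding. In KO rats the values were 560, 520, 622 and 493 after sham surgery and 781, 728, 578 and 668 after banding. All KO PAB libraries but 1 lay above each KO SHAM library, and the WT groups overlapped through WT SHAM 4. Its averaged log2 fold change was 0.37 (SE 0.15, adjusted p = 0.148). Without WT SHAM 4 it was 0.49 with an adjusted p of 0.0279, the only member that leaving out a single library brought past the test. Cox8b, the muscle isoform of subunit 8, was at 357, 207, 250 and 332 CPM in WT rats after sham surgery and at 277, 265, 300 and 290 after banding. In KO rats the values were 323, 334, 305 and 201 after sham surgery and 295, 233, 212 and 230 after banding. It had -0.14 (SE 0.13, adjusted p = 0.543). Cox4i2, an isoform known from lung and from cells in low oxygen, was scarce at 2.87 to 5.27 CPM. In KO it was lower in each banded library (2.94 to 3.39 CPM) than in each sham library (3.84 to 5.06 CPM), an order that 4.32% of all genes had, at -0.45 (SE 0.20, adjusted p = 0.286). 

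Complex V makes ATP at its F1 head, turned by the c ring in the membrane. Its 15 nuclear members had a median of -0.04, with 4 above 0 and 11 below. The 3 c-ring genes Atp5g1, Atp5g2 and Atp5g3, which encode the same mature protein, had -0.07, -0.03 and -0.07 (SE 0.12, 0.10 and 0.12). Atp5o, a subunit of the stalk that holds the F1 head in place, was at 664, 392, 524 and 673 CPM in WT rats after sham surgery and at 584, 554, 579 and 622 after banding. In KO rats the values were 696, 683, 638 and 427 after sham surgery and 594, 540, 462 and 513 after banding. The lowest 2 values were again those of WT SHAM 2 and KO SHAM 4. Atp5d, a subunit of the central stalk, had the largest positive log2 fold change among nuclear members of complex V, 0.14 (SE 0.14, adjusted p = 0.561). Among 10 assembly and related genes the median was 0.05. Ndufaf4, an assembly factor of complex I, was at 53.8, 38.0, 47.1 and 57.4 CPM in sham and at 69.6, 59.4, 58.4 and 67.4 in banded WT rats, so that each banded WT library was above each sham one, as for 2.6% of all genes. Its log2 fold change in WT was 0.38 (SE 0.14, adjusted p = 0.377) and averaged over genotypes 0.25 (SE 0.10, adjusted p = 0.155).

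The 13 mitochondrially encoded messages had averaged banding log2 fold changes between -0.07 for Mt-nd3 and 0.15 for Mt-nd6, both complex I subunits, with SE of 0.11 to 0.14. Mt-nd6 is the one read from the other strand of the mitochondrial DNA. All 13 intervals lay within a 1.5-fold change. Mt-co1 was at 154361, 118166, 133085 and 183807 CPM in WT rats after sham surgery and at 158153, 142418, 168282 and 171428 after banding. KO rats had values of 169020, 202036, 152861 and 118633 after sham surgery and 186073, 160209, 141021 and 166520 after banding. Both the lowest and the highest value stood in sham groups. Its log2 fold change was 0.07 (SE 0.13, adjusted p = 0.783). Mt-co2 and Mt-cox3, the other subunits of the complex IV core, had 0.07 and 0.02, Mt-cyb of complex III had 0.03, and Mt-atp6 and Mt-atp8 of complex V had 0.06 and 0.11. The remaining complex I subunits had 0.07 (Mt-nd1), 0.11 (Mt-nd2), 0.07 (Mt-nd4), 0.09 (Mt-nd4l) and 0.10 (Mt-nd5). Adjusted p was between 0.571 and 0.956 over the 13.

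**Figure D3:**
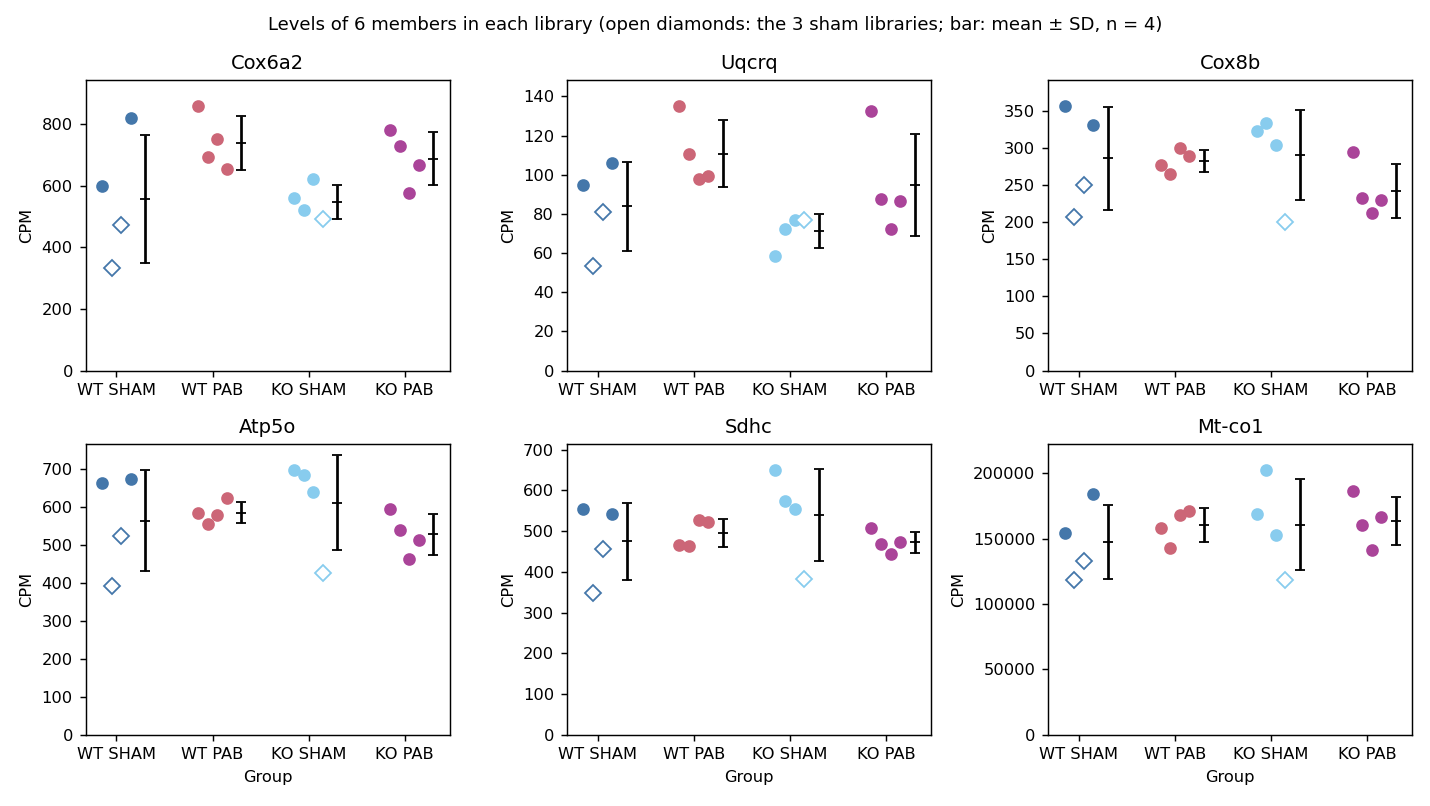
Level in CPM (y axes, linear) of Cox6a2, Uqcrq, Cox8b, Atp5o, Sdhc and Mt-co1 in each library by group, with mean ± SD (n = 4); open diamonds are WT SHAM 2, WT SHAM 3 and KO SHAM 4. For Atp5o the open diamonds lie at 392, 524 and 427 CPM, the other sham libraries at 638 to 696 and the banded libraries at 462 to 622.

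Within each genotype the same counts applied. In WT, 0 of 102 members passed edgeR's test (0.00743% of all genes did), and 1 had an unadjusted p below 0.05, Ndufaf4, where 11.7% of all genes had. The WT median was 0.13 over nuclear members, with 80 of 89 above 0, and 0.12 over Mt- members. In KO, 0 of 102 passed (0.632% of all genes), 1 had an unadjusted p below 0.05, Cox4i2, where 15.6% of all genes had, and the medians were -0.03 and 0.03. DESeq2 and limma-voom also called 0 members in either genotype. The interaction, the response to banding of KO less that of WT, called 0 members and 0% of all genes, with 1 member at an unadjusted p below 0.05 where 1.76% of all genes were (Cox4i2, -0.59, SE 0.28, adjusted p = 0.999). The interaction had a nuclear median of -0.16, with 83 of 89 members below 0, against 0.01 over all genes. Only 18 of 102 members had an interaction interval within a 1.5-fold change, so a difference between the genotypes of that size could not be resolved for most members. Without the 3 sham libraries the nuclear median was -0.11 in WT, -0.13 in KO and -0.02 for the interaction.

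The genotype comparisons ask what mutation of ERalpha changed. In SHAM, PAB and the average over surgeries, 0 of 102 members passed edgeR's test, where 0.00743% of all genes did in each, and DESeq2 and limma-voom called 0 as well. Unadjusted p was below 0.05 for 0 members in SHAM, for 1 in PAB and for 0 in the average, against 2.03%, 4.52% and 4.93% of all genes. The 1 was Cox4i2, at 3.42, 4.52, 5.27 and 3.86 CPM in WT PAB and 3.39, 3.35, 3.01 and 2.94 in KO PAB. The groups did not overlap, as for 1.63% of all genes lower in KO, and the log2 difference was -0.43 (SE 0.20, adjusted p = 0.999). In PAB, 84 of 89 nuclear members lay below 0, with a median of -0.13 against 0.00 over all genes, while the Mt- median was 0.01. In SHAM the nuclear median was 0.05 and the Mt- median 0.12. Without WT SHAM 2, WT SHAM 3 and KO SHAM 4 the nuclear median in SHAM turned to -0.07, with 64 of 90 members below 0, and that averaged over surgeries was -0.10, with 76 of 90 below 0. In that fit 0 members passed in SHAM, PAB or the average, where 0.00736% of all genes did in each. Unadjusted p was below 0.05 for 6 members in SHAM, 6 in PAB and 16 in the average, all lower in KO, against 2.47%, 3.46% and 4.24% of all genes that were lower at that level. Averaged over surgeries with all 16 libraries, the smallest adjusted p of any member was 0.990, reached by Cox8a, the ubiquitous isoform of subunit 8, at -0.14 (SE 0.08). The interval lay within a 1.5-fold change for 99 of 102 members, against 73.0% of all genes.

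Without WT SHAM 2, WT SHAM 3 and KO SHAM 4 the banding comparison averaged over genotypes took another direction for the nuclear members. This fit keeps 2 WT SHAM and 3 KO SHAM libraries. Those it leaves out are all on the sham side and include the lowest 2 of all 16 for OXPHOS. The sham level of most members is therefore higher in this fit by construction. On the banded side the fit keeps KO PAB 3, where 9 of 11 adipocyte and 6 of 11 mesothelial markers had at least 10 counts. That library had the lowest nuclear median deviation of the banded ones, -0.21. Of 103 members tested, 9 passed edgeR's test as lower in banded hearts and 0 as higher, against 3.17% lower and 3.83% higher of all genes. The 9 were Atp5c1 (-0.29, SE 0.07), Atp5i (-0.30, SE 0.08), Atp5l (-0.28, SE 0.08) and Atp5o (-0.27, SE 0.06) of complex V, Cox7b (-0.35, SE 0.09), Cox7c (-0.27, SE 0.07), Cox7a2l2 (-0.25, SE 0.07) and Cox8b (-0.34, SE 0.08) of complex IV, and Sdhc (-0.23, SE 0.06) of complex II. Their adjusted p ran from 0.0296 to 0.0473. The nuclear median was -0.11 with 71 of 90 members below 0, and the 13 Mt- members were all below 0 with a median of -0.09 and none past the test. Complex V stood lowest among the nuclear groups, with a median of -0.22 and 15 of 15 members below 0, and complex I highest, with -0.06. Uqcrq and Cox6a2 stayed above 0, at 0.30 (SE 0.14, adjusted p = 0.208) and 0.17 (SE 0.10, adjusted p = 0.318). In WT, in KO and in the interaction 0 members passed in this fit, against 0%, 2.53% and 0% of all genes. On the same 13 libraries DESeq2 called 18 members lower averaged over genotypes, where it called 5.21% of all genes lower, and 13 in KO, against 4.09%. With scaling by nuclear genes only edgeR called 10 members lower, against 3.25% of all genes.

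Members described above that were not among the 9 moved as follows in the fit to 13 libraries. In complex I, Ndufv1 went from 0.25 to 0.09 (SE 0.11), Ndufs7 from 0.34 to 0.25 (SE 0.21), and the 2 Ndufa1 entries were at 0.18 (SE 0.15) and -0.13 (SE 0.07). In complex II, Sdha and Sdhb turned to -0.15 (SE 0.07) and -0.06 (SE 0.09), and Sdhd stood at -0.23 (SE 0.07, adjusted p = 0.0665). Uqcr10 of complex III was at 0.16 (SE 0.17), and Cox4i2 in KO was at -0.49 (SE 0.20, adjusted p = 0.172). In complex V, the c-ring genes Atp5g1, Atp5g2 and Atp5g3 were at -0.24, -0.17 and -0.26 (SE 0.08, 0.07 and 0.07), and Atp5d at 0.00 (SE 0.11). Ndufaf4 went from 0.38 to 0.20 (SE 0.12, adjusted p = 0.728) in WT and from 0.25 to 0.11 (SE 0.08, adjusted p = 0.399) averaged over genotypes. The Mt- members ran from -0.24 for Mt-nd3 to -0.01 for Mt-atp8, with Mt-co1 at -0.08 (SE 0.10).

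**Figure D4:**
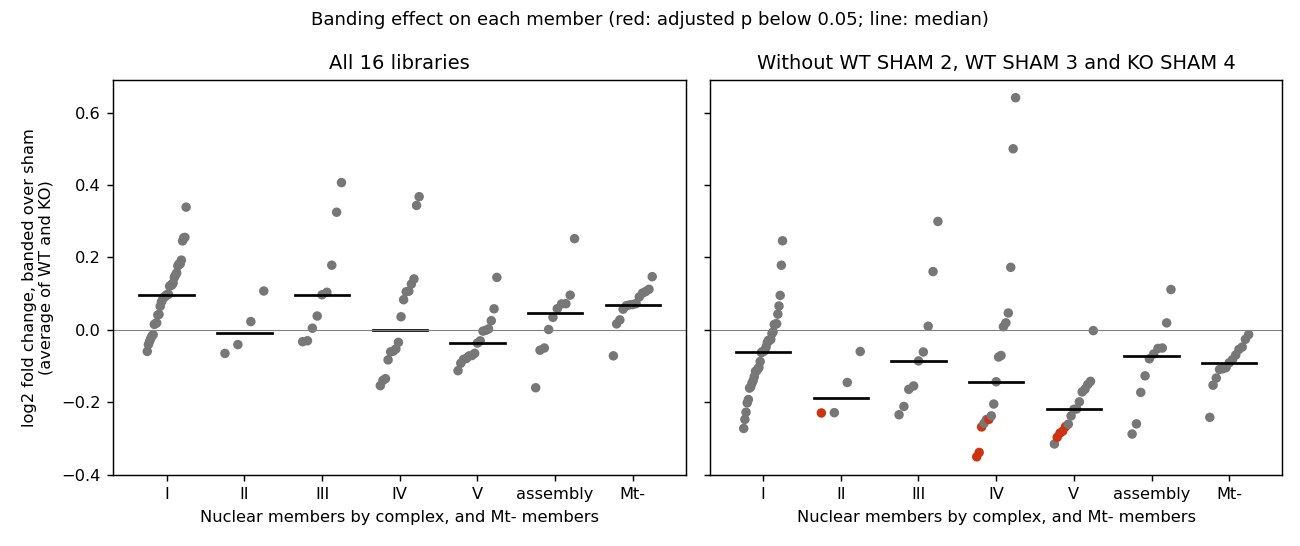
Banding log2 fold change averaged over genotypes, one point per member, by complex for nuclear members and together for Mt- members; black lines are medians and red points have an adjusted p below 0.05. With all 16 libraries (left) no point is red; without WT SHAM 2, WT SHAM 3 and KO SHAM 4 (right) 9 are, all below 0. The 1 member named as a pseudogene, Ndufv3-ps1, is not drawn.

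These 9 calls also rest on the remaining libraries. When each of the 13 was left out in turn, 0 members passed in 7 cases (without WT SHAM 1, WT SHAM 4, WT PAB 2, KO SHAM 1, KO SHAM 2, KO PAB 2 or KO PAB 4). In the other 6 cases 2 to 25 members passed, all lower, with 25 without KO PAB 1, 11 without WT PAB 4, 5 without WT PAB 3, 5 without KO SHAM 3, 3 without WT PAB 1 and 2 without KO PAB 3. Of all genes, 0, 235, 488, 217, 174, 291 and 278 passed in the first 7 cases, in the order named. In the other 6 cases 1367, 1307, 773, 568, 617 and 529 of all genes passed, again in the order named. Members thus passed only in the cases where the most genes passed. Whether the loss of the 9 calls is particular to these members was not tested. The nuclear median was -0.16 to -0.09 in the 13 cases. All of these cases leave out the same 3 sham libraries, so their shared direction is not a separate check. With those libraries kept the median was positive. For 6 members the 8 banded libraries all lay below the 5 remaining sham libraries, namely Atp5c1, Atp5g3, Atp5o, Cox8b, Sdhc and Sdhd, where 1.68% of all genes did so. Atp5c1, the gamma subunit that turns inside the F1 head, was at 904 to 1015 CPM (median 997) in the 5 sham libraries, at 674 to 902 (median 790) in the banded ones and at 557 to 739 in the 3 left out. Its banded values thus lie between the 2 sets of sham libraries. Cox7b, a small complex IV subunit, ran from 472 to 612 CPM in the 5 sham libraries, 354 to 503 in the banded ones and 313 to 409 in the 3 left out.

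With the mean adipocyte and mesothelial marker score as a covariate over all 16 libraries, 22 members passed as lower with banding, where 4.83% of all genes did, and the 9 above were among them. They include Mt-nd3, the only Mt- member to pass in that fit, at -0.32 (adjusted p = 0.0287). In KO alone 16 passed as lower in that fit (3.28% of all genes). No member passed as higher in either. Marker scores and banding are linked in these data, since the 3 highest libraries are all sham, and their parts cannot be told apart.

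Isoform pairs were compared within each library, where scaling between libraries cancels. The ratio of Cox6a2 to Cox6a1 counts, the muscle over the ubiquitous isoform, was 7.37 ± 1.26 (SD, n = 4) in sham and 9.04 ± 0.781 in banded WT rats, and 7.97 ± 0.645 and 9.32 ± 0.877 in KO rats. The groups overlapped within each genotype. The ratio of Cox8b to Cox8a went the other way, at 6.36 ± 0.837, 5.80 ± 0.881, 6.92 ± 0.849 and 5.57 ± 0.797 in the same order, also with overlap. In KO that overlap rests on KO SHAM 4 (5.65): the other 3 KO SHAM libraries stood at 7.26 to 7.44, above each KO PAB library (4.84 to 6.65). In WT without WT SHAM 2 and WT SHAM 3, the remaining 2 sham libraries stood at 6.72 and 7.37 and the banded ones at 4.85 to 6.98, which overlap. The ratio of Cox6a2 to Cox6a1 still overlapped in both genotypes without the 3 libraries, at 7.46 to 8.90 in KO SHAM against 8.61 to 10.5 in KO PAB. In WT SHAM 2, WT SHAM 3 and KO SHAM 4 both ratios stood at the low end of their sham groups, except Cox6a2 to Cox6a1 in KO SHAM 4 (7.64), which was above KO SHAM 2 (7.46). These are ratios of reads, not corrected for transcript length. Cox7a1, known as the heart isoform of subunit 7A, had only 22 to 71 counts in a library, while Cox7a2l2 had 7520 to 11418. These entries have related sequences and the counting could split or move their reads, so the Cox7 levels are uncertain. Ndufa4l2, the paralog of Ndufa4 known from low oxygen, was at 3.03 ± 0.947, 3.58 ± 0.832, 3.07 ± 0.265 and 3.14 ± 0.773 CPM, against 456 ± 97.1, 490 ± 53.2, 470 ± 97.5 and 460 ± 44.3 CPM for Ndufa4.

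**Figure D5:**
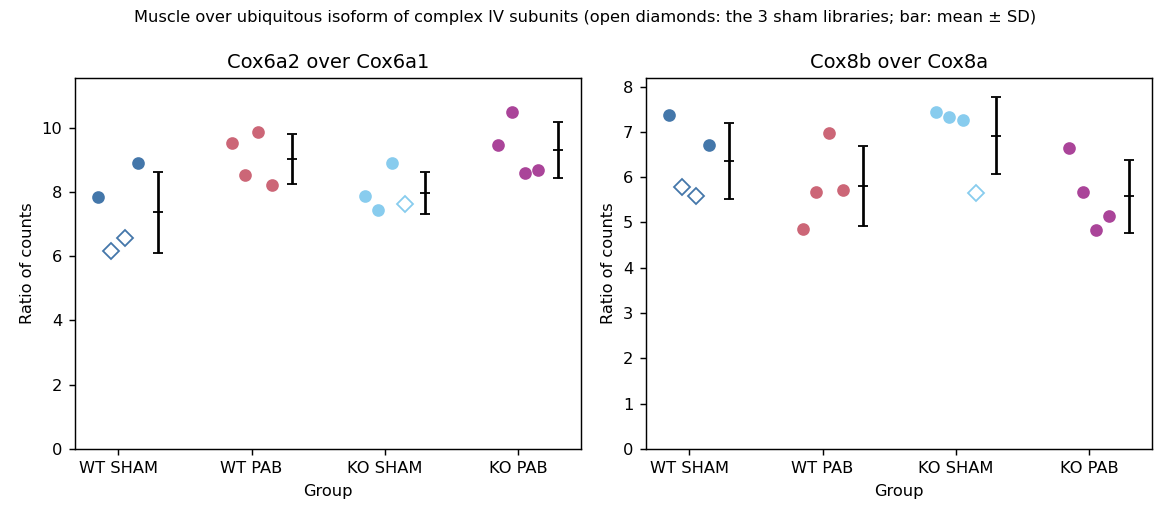
Ratio of counts of the muscle to the ubiquitous isoform of 2 complex IV subunits in each library, by group, with mean ± SD (n = 4); open diamonds are WT SHAM 2, WT SHAM 3 and KO SHAM 4. The group means of Cox6a2 over Cox6a1 are 7.37 and 7.97 in sham and 9.04 and 9.32 in banded hearts, and those of Cox8b over Cox8a are 6.36 and 6.92 against 5.80 and 5.57.

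Near the count rule, Cox6b2, the testis isoform of subunit 6B, was the member closest to the limit, with 1 to 12 counts and 10 or more in 4 libraries. It is the only member that the filter on low counts removed, so it has no test over 16 libraries. Cox7a1 and Ndufv3-ps1 came next, with at least 22 counts in each library. The closest entries outside were Ndufs5 with 1 to 8 counts and Ndufa13 with 0 to 4, as well as a second Cox6b1 entry with 0 to 4. Cox6c-ps1, Cox7b2, Cox8c and Ndufb4l1 were at 0 in every library. Ndufs5 and Ndufa13 encode integral subunits of complex I, and how reads were assigned to these entries was not tested.

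Members varied more between libraries than genes in general over all 16 libraries. Over 13 libraries they varied slightly less than all genes tested and more than genes with a mean of at least 10 CPM. The median SD of log2 CPM was 0.24 over the 102 members, 0.20 over all genes tested and 0.18 over the 6917 genes with a mean of at least 10 CPM. Without the 3 sham libraries these were 0.17, 0.18 and 0.15. Ndufs7, Uqcrq and Cox6a2 varied most among members. Ndufaf7, an assembly factor of complex I, Cox7a2l, which joins complexes III and IV, and Cox8a varied least.

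Genes that serve the same complexes from outside the rule were counted in 8 lists. Averaged over genotypes, 1 of 11 ubiquinone synthesis genes and 1 of 73 mitochondrial ribosome genes rose with banding and none fell, against 5.09% of all genes called in either direction. Coq4, which supports ubiquinone synthesis, was at 2.77 ± 0.315 CPM in sham and 4.45 ± 0.689 in banded WT rats, and at 3.07 ± 0.431 and 4.56 ± 0.859 in KO rats (log2 fold change 0.63, SE 0.12, adjusted p = 0.00918). Each banded library was above each sham library. Mrpl36, a protein of the large mitochondrial ribosome subunit, was at 15.3 ± 0.912, 19.8 ± 1.33, 16.1 ± 1.39 and 20.9 ± 1.44 CPM (0.37, SE 0.06, adjusted p = 0.00455), also without overlap. By the looser rule of no overlap within WT and within KO, 1.22% of all genes were higher. No gene passed among 20 complex IV assembly factors, 13 assembly factors of complexes I, II and V, 15 genes of mitochondrial DNA upkeep and transcription, 14 regulators, 11 carriers, and 5 genes of cytochrome c and complex III. At an unadjusted p below 0.05 these held 6, 4, 2, 5, 1 and 1, where 22.7% of all genes were, in either direction. All of these were higher with banding but 1 regulator. Closest were Ucp2, an uncoupling protein relative, at 0.43 (SE 0.12, adjusted p = 0.0522), and Lyrm7, an assembly factor of complex III, at 0.35 (SE 0.10, adjusted p = 0.0548). Among the regulators, Ppargc1a, the coactivator of mitochondrial biogenesis, had 0.11 (SE 0.14, adjusted p = 0.698) and Esrra, which encodes ERR alpha, 0.31 (SE 0.13, adjusted p = 0.183). Tfam, which packages and transcribes mitochondrial DNA, had 0.00 (SE 0.09, adjusted p = 0.990). No gene of the 8 lists passed in the within-genotype, genotype or interaction comparisons. Without WT SHAM 2, WT SHAM 3 and KO SHAM 4, Coq4 and Mrpl36 still passed as higher, at 0.57 (SE 0.14, adjusted p = 0.0343) and 0.35 (SE 0.06, adjusted p = 0.0177). In that fit 8 of 162 genes of these lists passed as lower, against 3.17% of all genes, namely Mrpl48, Mrps16, Mrps18c and Mrps31 of the mitochondrial ribosome, the channel Vdac3, the assembly factors Atpaf1 and Ttc19, and Ssbp1, which binds single-stranded mitochondrial DNA. Their log2 fold changes ran from -0.40 to -0.21. In KO alone Mrps18c and Mrps31 passed as lower in that fit, at -0.49 (SE 0.12, adjusted p = 0.0497) and -0.43 (SE 0.10, adjusted p = 0.0419), where 1.11% of all genes did. Values of the other genes named here were 0.44 (Ucp2, SE 0.15), 0.25 (Lyrm7, SE 0.09), 0.01 (Ppargc1a, SE 0.16), 0.21 (Esrra, SE 0.13) and -0.13 (Tfam, SE 0.06), none past the test.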

How the data were processed

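Right ventricle RNA of 16 libraries was measured by stranded mRNA sequencing. The deposited values are expected counts, which the authors made with STAR 2.5.3a, RSEM 1.3.0 and the build Rnor_6.0, per the submitters' processing notes; they are whole numbers, and the annotation, strand setting and rounding are not given in the sources used here. Entries with the same symbol were kept apart.

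The tests used edgeR 4.0.16 under R 4.3.3 (TMM scaling, filterByExpr with a minimum count of 10, robust quasi-likelihood fit of 4 group means over 16 libraries), which left 13458 genes. Adjusted p are Benjamini-Hochberg values over all genes in each of 7 comparisons. SE is the log2 fold change over the root of F, and intervals are at 95%. The fit was tested on simulated data. Library medians use a pseudocount of 1 CPM.

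Alternatives were RLE scaling, DESeq2 1.42.0, limma-voom (limma 3.58.1), other filters, scaling by nuclear genes only, fits to only the groups compared, a replicate block, a marker covariate and libraries left out.

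Members, lists and the 3 sham libraries set apart were chosen with earlier results of these data known. Named were members past the test, the 2 smallest p per complex in each averaged comparison, all Mt- genes, fixed isoform sets, the most and least variable members and those next to the count rule. The 9 and 6 members listed without the 3 sham libraries were named after their values were seen.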

Additional observations from a re-analysis of the deposited data

Results flagged for a closer look

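Within groups of 4 libraries, 164 groups of values were tested for a single library far from the other 3 (Dixon's criterion at the 95% level), and 4 were picked out, where chance picks about 5% of groups. The ratio of Mt- to nuclear member counts was 12.2 in KO PAB 4 and 10.4 to 10.7 in the other KO PAB libraries. The nuclear median deviation was -0.34 in KO SHAM 4 and 0.08 to 0.16 in the other KO SHAM libraries. Atp5g3, a c-ring gene of complex V, was at 615 CPM in KO SHAM 4 and at 889 to 922 CPM in the rest of that group. Ndufa4l2 was at 4.44 CPM in WT SHAM 4 and at 2.40 to 2.65 CPM in the rest of that group. KO SHAM 4 is one of the 3 sham libraries that carried adipocyte and mesothelial transcripts, and their part in its values was not tested.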

How the results depend on the processing

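The 0 calls per comparison held with RLE scaling, DESeq2, limma-voom, no filter, at least 1 CPM in 4 libraries, nuclear genes only and fits to only the groups compared. Leaving out 1 of the 16 libraries gave 0 to 1 calls for banding averaged over genotypes. Without the 3 sham libraries averaged banding gave 9 calls with edgeR, 10 with scaling by nuclear genes only and 18 with DESeq2. In these fits 3.17%, 3.25% and 5.21% of all genes were called lower. In KO alone DESeq2 without the 3 libraries called 13 (4.09%). The marker covariate, fitted over all 16 libraries, gave 22 calls averaged over genotypes (4.83%) and 16 in KO (3.28%). All of these calls were lower. Leaving out 1 further library of the 13 gave 0 to 25 member calls with edgeR, while 0 to 1367 of all genes passed. These last fits, except edgeR without the 3 libraries and the covariate, were chosen after the data were seen. The nuclear median of banding in WT moved from 0.13 to -0.11 without the 3 libraries (-0.11 with nuclear genes only, -0.11 with DESeq2) and to -0.13 with the covariate, and the Mt- median from 0.12 to -0.17 with the covariate. The direction of the nuclear banding median therefore depends on these libraries in WT and in the average over genotypes. In KO that median was negative both with and without them. Pairing by replicate number was not evident: 3 of 16 libraries correlated best with one of their own number, and 7 of 24 same-number pairs had r over 0.1. These r ran from -0.62 (WT SHAM 4 with KO SHAM 4) to 0.56 (WT SHAM 1 with KO SHAM 1). The check thus cannot exclude pairing of some libraries. With the replicate block 0 members passed and the nuclear median of averaged banding was 0.04. Depth does not limit most members, and Cox6b2, with 1 to 12 counts, could not be resolved.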

Other observations

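Some values stand outside the comparisons. WT SHAM 3 held 1396 counts of Ucp1, the brown adipocyte uncoupling protein, while WT SHAM 2, with 1559 counts of Adipoq, held 0 and KO SHAM 4, with 404 counts of Adipoq, held 1. The 3 libraries that share adipocyte and mesothelial transcripts therefore differ in this gene. Their OXPHOS levels differ too, since the nuclear median deviation was -0.16 in WT SHAM 3, -0.34 in KO SHAM 4 and -0.53 in WT SHAM 2. Whether these values are related was not tested. Among the 8 banded libraries, KO PAB 3 had the most Adipoq (142 counts), the lowest cardiomyocyte marker sum (59684 CPM) and the lowest nuclear share of counts outside Mt- entries (5.18%).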
